A study of Mus musculus with 4 samples.

Results

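Late rearranging double-positive (DP) thymocytes are resting CD4+CD8+ cells of the thymus that still express the recombinase genes and that carry transcripts of 4 genes, Xrra1, Slc6a19, Arl5c and A430035B10Rik. Members were picked cell by cell from raw counts of unique molecular identifiers (UMIs), the tags that count each captured transcript once. A member had at least 200 detected genes, at least 1000 UMIs and at most 10% mitochondrial UMIs. It had at least 1 UMI of Rag1 or Rag2, at least 2 UMIs of Cd4, Cd8a and Cd8b1 together and at least 1 UMI of the 4 late genes. It had no UMI of 5 cell cycle genes (Top2a, Mki67, Pclaf, Nusap1, Cdc20) or of 5 early DP genes (Tubb2b, Insl5, Slc7a11, Mirt1, Capn3). It had at most 1 UMI of the selection genes Itm2a, Cd69 and Egr1, and fewer than 4 UMIs of 6 interferon response genes (Rsad2, Usp18, Rtp4, Ifit1, Ifit3, Isg15). This left 1367 cells of the 57354 deposited and of the 33597 that passed the limits on genes, UMIs and mitochondrial share. Control 1 gave 233 of them, control 2 gave 427, cKO 1 gave 179 and cKO 2 gave 528.

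The study asked what the loss of Tox4, a DNA-binding HMG-box protein, does to developing T cells. Thymocytes were profiled with 10x Genomics Chromium 3′ (version 3) single-cell RNA sequencing. The 2 control libraries came from Tox4 F/F mice, whose Tox4 exons 4 to 6 lie between loxP sites, and the 2 cKO libraries from Tox4 F/F;Lck-Cre mice, in which the proximal Lck promoter drives Cre recombinase from the DN3 stage of T cell development onward. Mice of both groups carried the same floxed alleles on a C57BL/6 background and were gender-matched littermates aged 6 to 8 weeks, and the 4 libraries are the only replicates in every comparison of genotypes.

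In DP thymocytes the RAG1 and RAG2 proteins join a Trav (variable) and a Traj (joining) segment of the Tcra locus to make the alpha chain of the T cell receptor. A cell whose receptor is not selected can rearrange the same allele again, replacing the first join with a Trav segment farther upstream and a Traj segment farther downstream. The anti-apoptotic protein BCL-xL, the product of Bcl2l1, helps to keep DP cells alive long enough for these later rounds, which end with positive selection or with death.

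The Trav segments give a measure of this process and are not among the genes of the membership rule. The marker genes of the rule came from clusters of these same cells, so the measure is not independent of the rule. The annotation placed 128 Trav genes on chromosome 14 of GRCm38, all upstream of the constant gene Trac (chr14:54220521-54224206, plus strand). They were divided by order into a distal group of 43 genes (chr14:52427928-53042891), a middle group of 43 genes (chr14:53047287-53454784) and a proximal group of 42 genes (chr14:53461099-53977678), the last lying nearest to the Traj segments. Below are the last 30 bases of the 2 segments of each group with the most UMIs in late rearranging cells, shown because these ends are what joins to Traj. Capitals mark the last in-frame cysteine codon, the conserved residue that opens the CDR3 loop of the receptor. The sequences are those of GENCODE M21 and were not read from the libraries.
Trav7d-3, distal, chr14:52744811-52744840, plus strand: actctgctctctacctcTGTgcagtgagca
Trav7d-4, distal, chr14:52770363-52770392, plus strand: cgctctctacttcTGTgcagctagtgagca
Trav16n, middle, chr14:53351592-53351621, plus strand: agcagtatatttcTGTgctatgagagaggg
Trav14d-3-dv8, middle, chr14:53079016-53079045, plus strand: actcagccacctacttcTGTgcagcaagtg
Trav13-1, proximal, chr14:53545496-53545525, plus strand: actcaggcacttatctcTGTgctttggaac
Trav6-7-dv9, proximal, chr14:53710390-53710419, plus strand: ctcggctgtgtactacTGTgctctgagtga

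Trav13-1 gave 20 UMIs in late rearranging cells, Trav16n and Trav6-7-dv9 gave 17 each, and Trav14d-3-dv8 gave 13. The distal Trav7d-3 gave 9 and Trav7d-4 gave 6. In all, 277 UMIs fell on 64 of the 128 segments, 66 in control 1, 103 in control 2, 32 in cKO 1 and 76 in cKO 2. A 3′ library reads near the poly(A) tail, so few reads reach a Trav segment, and no Traj UMI was counted in these cells. Several segments have near-identical copies elsewhere in the locus, so single-segment counts are uncertain. Segments of like name can lie in different groups, as do Trav7d-4 (distal), Trav7n-4 (middle) and Trav7-4 (proximal). The shares of the groups may therefore be affected too, which was not tested.

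Late rearranging cells had a larger share of Trav UMIs outside the proximal group than DP cells with early genes, a difference that varied with how the classes were drawn. In late rearranging cells 39.4% of the Trav UMIs of control 1 lay in the middle and distal groups (95% Clopper-Pearson interval 27.6 to 52.2), against 50.5% in control 2 (40.5 to 60.5), 31.2% in cKO 1 (16.1 to 50.01) and 40.8% in cKO 2 (29.6 to 52.7). In resting DP cells with early genes and no late genes the shares were 24.2%, 22.6%, 15.8% and 24.1% in the same order, and in those with both gene sets they were 28.3%, 31.2%, 27.4% and 20.3%. Late rearranging cells were thus higher than either of the other classes in 4 of 4 libraries, by 18.8 percentage points on average over the early-gene-only cells (SD 6.06, n = 4). The intervals of the late and early-gene-only cells overlapped in control 1, cKO 1 and cKO 2 and not in control 2. These intervals cover counting error only, and a cell can give several UMIs. Counted as cells, 16 of 40 Trav-bearing late rearranging cells of control 1 carried a middle or distal segment, 36 of 71 in control 2, 9 of 26 in cKO 1 and 28 of 65 in cKO 2. The corresponding early-gene-only cells were 5 of 30, 7 of 31, 5 of 22 and 15 of 57. With the rule applied to cells thinned to 1000 UMIs the classes were redrawn, so that control 1 had 689 late-gene-only cells instead of 233, and the Trav UMIs of the redrawn classes were counted unthinned. Late-gene-only cells then had 26.9%, 41.8%, 30.3% and 31.5% and early-gene-only cells 35.8%, 25.1%, 29.03% and 18.5%. The mean difference was then 5.47 points (SD 11.6, n = 4), and control 1 had the opposite sign. With the early-gene condition dropped, so that cells with both gene sets counted as late, it was 6.58 points. There cKO 2 had the opposite sign (22.7% against 24.1%). At the 5% mitochondrial limit, where 9 to 19 Trav UMIs per library were left in late-gene-only cells, cKO 2 had the opposite sign (26.7% against 35.7%). The difference between classes is given as a description, with no test.

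**Figure D1:**
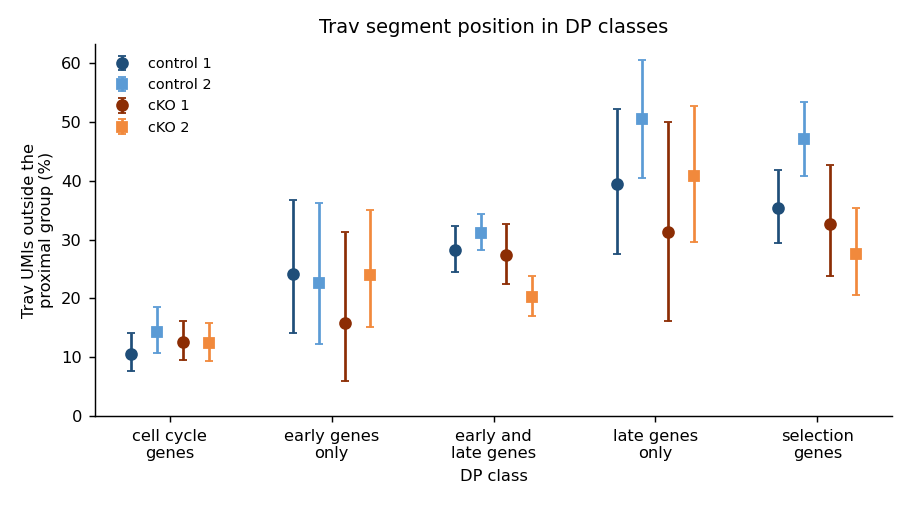
Percentage of Trav UMIs outside the proximal group (y axis) in 5 classes of DP cells (x axis), for each library; bars are 95% Clopper-Pearson intervals and cover counting error only. The late-gene-only cells lie at 31.2% to 50.5%, above the early-gene-only cells (15.8% to 24.2%) in every library, while cells with at least 3 cell cycle UMIs lie at 10.6% to 14.3%.

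DP cells with at least 3 cell cycle UMIs had 10.6%, 14.3%, 12.6% and 12.4% of Trav UMIs outside the proximal group. DP cells with at least 3 selection UMIs had 35.4%, 47.0%, 32.7% and 27.5%. The late rearranging and selection-gene classes overlapped in range.

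In late rearranging cells the genotypes overlapped in Trav use. Outside the proximal group lay 44.9% of Trav UMIs on average in the late rearranging cells of controls (SD 7.84, n = 2) and 36.0% in those of cKO (SD 6.75, n = 2), a difference of -8.92 percentage points. With 1 library left out at a time it ran from -14.5 (without control 1) to -3.37 (without control 2). An exact two-sided permutation test over the 4 libraries gave p = 0.667, and 2 libraries against 2 cannot give less than 0.33.

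The label was then checked against the data. The 8 DP identity genes were all detected in the members of every library. They were also all detected in early-gene-only cells, cells with both gene sets and selection-gene cells, so detection does not set the members apart. Against cells with both gene sets their median log2 ratio was -0.20, with 1 higher and 4 lower in every library. Dntt, which encodes the polymerase that adds untemplated bases at the joins, stood at 1122 and 1392 CPM (UMIs scaled to 1000000 per library and class) in control 1 and control 2 and at 901 and 1298 in cKO 1 and cKO 2. Ccr9, the chemokine receptor of cortical thymocytes, stood at 1336, 1548, 1003 and 1518 CPM in the same order, and Themis, a thymocyte signalling adaptor, at 752, 873, 606 and 939 CPM. Rag1, a rule gene, stood at 1938, 1758, 1390 and 1948 CPM. For these 4 genes cKO 1 was the lowest library.

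The early and late genes did not mark separate cells. Of 11411 resting DP cells, 77.9% carried UMIs of both sets, 12.0% of the late set alone, 7.79% of the early set alone and 2.32% of neither. With every cell thinned to 1000 UMIs, late genes were found in 67.6%, 72.3%, 64.6% and 63.4% of cells with an early gene in control 1, control 2, cKO 1 and cKO 2. Among cells without an early gene they were found in 61.9%, 73.5%, 57.7% and 60.3%. Before thinning the percentages were 92.1, 94.7, 91.8 and 86.2 with an early gene and 82.9, 92.6, 78.5 and 79.8 without. The members are therefore best described by their rule, as resting DP cells with late-gene and without early-gene UMIs.

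Membership varied with depth. The median member had 2716, 2347, 2586 and 2042.5 UMIs in the 4 libraries, against 3181, 2676, 3024 and 2295 in cells with both gene sets. Among resting DP cells with at least 1000 and fewer than 2000 UMIs, members made up 28.5% in control 1, 23.6% in control 2, 21.4% in cKO 1 and 18.9% in cKO 2. Among those with 4000 or more they made up 7.24%, 4.38%, 9.25% and 5.58%. The share fell from the shallowest to the deepest cells in all 4 libraries.

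**Figure D2:**
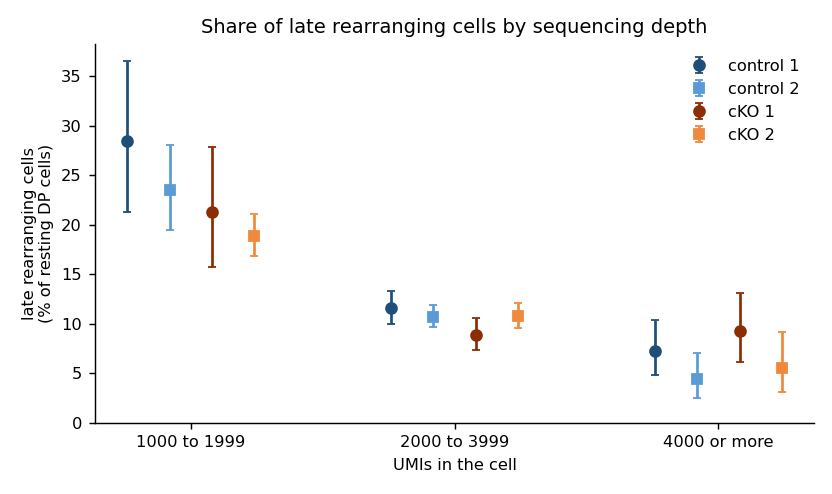
Share of late rearranging cells among resting DP cells (y axis, percent) in 3 ranges of UMIs per cell (x axis) for each library; bars are 95% Clopper-Pearson intervals. The share is 18.9% to 28.5% below 2000 UMIs and 4.38% to 9.25% from 4000 UMIs.

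Arl5c was the late gene that most often stood alone. Arl5c, which encodes an ARF-like GTPase (chr11:97989578-97996181, minus strand), was the only late gene of 457 members (33.4%), and A430035B10Rik the only one of 134 (9.8%). Xrra1 was alone in 21 and Slc6a19, a neutral amino acid transporter (chr13:73679745-73704865, minus strand), in 20. Of all members, 632 (46.2%) had 1 late gene, 525 had 2, 191 had 3 and 19 had all 4.

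The levels of the late genes in the members follow in part from the rule, which asks for at least 1 of their UMIs, and are given as a description. Arl5c stood at 706, 891, 541 and 720 CPM in the members of control 1, control 2, cKO 1 and cKO 2, and at 720, 829, 617 and 613 CPM in the cells with both sets. In DP cells with selection genes it stood at 163, 199, 130 and 154 CPM. A430035B10Rik stood at 336, 459, 256 and 447 CPM in the members and at 394, 473, 396 and 436 CPM in the cells with both sets. Slc6a19 stood at 54.6, 99.3, 59.3 and 104 CPM against 63.7, 94.8, 97.8 and 90.2 CPM, and Xrra1 at 54.6, 93.6, 50.03 and 55.3 CPM against 83.4, 88.8, 49.9 and 49.0 CPM. The members of cKO 1 were below the cells with both sets for A430035B10Rik and Slc6a19, and those of control 1 for Xrra1, by over 1.5 times each.

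**Figure D3:**
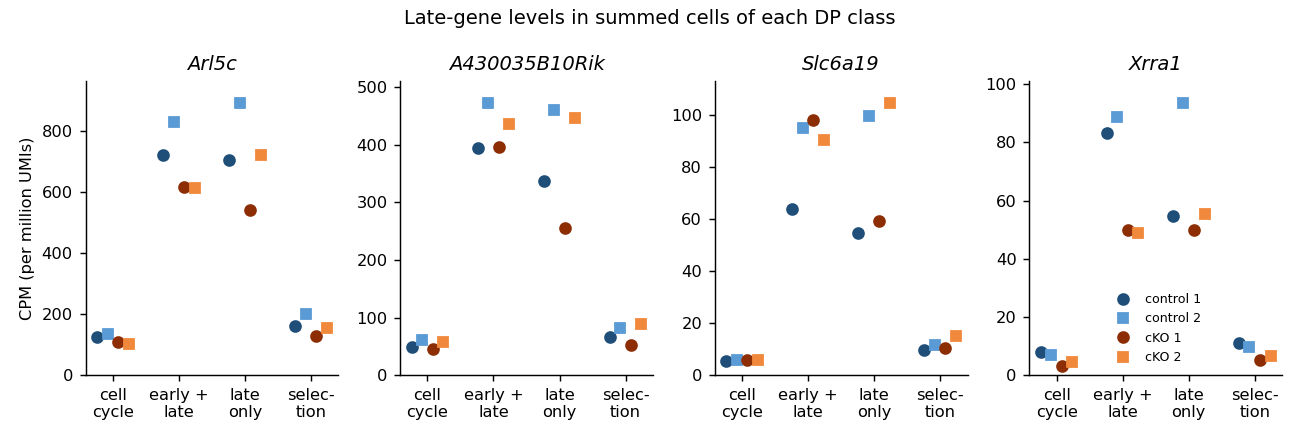
CPM (y axis) of the 4 late genes in UMIs summed over cells with cell cycle genes, cells with early and late genes, members (late only) and cells with selection genes (x axis), for each library. Arl5c reaches 541 to 891 CPM in the members; the rule fixes that members carry these genes, so the plot is a description.

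Members close to the threshold differed from those further inside. The 325 members with a single late-gene UMI had Rag1 levels of 1036, 1217, 814 and 1430 CPM in control 1, control 2, cKO 1 and cKO 2. Members with 3 or more late-gene UMIs had 2277, 1962, 2097 and 2210 CPM. Cells just outside, with neither late-gene nor early-gene UMIs, had 535, 756, 937 and 1416 CPM. Rag1 thus followed the late-gene count, except that in cKO 1 the cells just outside had more Rag1 than the members just inside.

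Some members carried transcripts of mature single-positive thymocytes. At least 2 UMIs of 9 mature markers were found in 26 control 1 members (11.2%), 31 in control 2 (7.26%), 38 in cKO 1 (21.2%) and 34 in cKO 2 (6.44%), against 10.4%, 7.78%, 10.0% and 6.96% of cells with both gene sets. In early-gene-only cells they were found in 21.5%, 8.72%, 15.4% and 6.90%, and in the deeper selection-gene cells in 48.0%, 42.5%, 48.6% and 43.6%. The members were above the early-gene-only cells in cKO 1 and below them in the 3 other libraries. The 9 markers summed to 411, 239, 593 and 237 CPM in the members to 459, 180, 430 and 224 CPM in early-gene-only cells and to 182, 151, 192 and 166 CPM in cells with both gene sets. S1pr1, the egress receptor of mature thymocytes, stood at 43.1, 11.3, 61.2 and 15.8 CPM in the members. It came from 7 to 14 cells per library. Ccr7, a homing receptor, stood at 61.8, 32.1, 88.9 and 21.1 CPM, and Klf2, the transcription factor that drives egress genes, at 105, 70.9, 139 and 53.6 CPM. These markers were highest in control 1 and cKO 1.

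Markers of other cell types were also summed. Erythroid markers summed to 11958 CPM in control 1 and 11515 CPM in cKO 1, against 26.5 and 52.7 CPM in control 2 and cKO 2. A single member of control 1 held 4728 of its library's 4738 Hbb-bs UMIs, and a single member of cKO 1 held 3416 of 3425. Mononuclear phagocyte markers summed to 571 and 499 CPM in the controls and to 808 and 925 CPM in the cKO libraries, against 635 to 722 CPM in cells with both gene sets. Of their 11 markers, 9 were found in every library, among them Cst3 at 191 to 334 CPM, Apoe at 87.7 to 226 CPM, Cd74 at 61.4 to 163 CPM and C1qa at 7.56 to 53.7 CPM. Csf1r was at 0 in both controls and at 7.41 and 2.63 CPM in cKO 1 and cKO 2, and Itgax was at 0 in all libraries except cKO 2. B cell markers ranged from 350 to 384 CPM, mostly from Ighm. Cd79b (25.9 to 37.8 CPM) and Igkc (13.2 to 16.7 CPM) were also found in every library, and Ms4a1 was at 0 in 3 of 4. Thymic epithelial markers ranged from 93.5 to 119 CPM. Ccl25 (28.8 to 45.7 CPM), Krt18 (17.3 to 31.5), Epcam (11.1 to 25.9), Krt8 (7.19 to 16.7), Psmb11 (3.78 to 11.1) and Krt5 (1.44 to 5.56) were found in every library, and Foxn1 was at 0 in 3 of 4. Of these 8 markers 3 were higher than in early-gene-only cells in 4 of 4 libraries, with a median log2 ratio of 0.62. The part of phagocytes, B cells and epithelial cells in the results was not tested. DN and gamma-delta markers summed to 128, 65.2, 215 and 118 CPM. Between 4 and 7 members per library shared a barcode with a cell of another library.

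Against early-gene-only cells the members were higher in genes of several kinds. Of 6414 genes with at least 20 CPM in either class, 1441 (22.5%) had 1 sign in all 4 libraries, 871 higher and 570 lower in the members. Scn4b, a sodium channel beta subunit, stood at 25.9, 39.7, 29.6 and 34.2 CPM in the members and at 2.2, 9.9, 4.9 and 10.9 CPM in early-gene-only cells. The mean log2 ratio of CPM with 1 CPM added was 2.24 (SD 0.66, n = 4), and 1.36 with the rule applied to thinned cells. Smoc1, a secreted calcium-binding protein, stood at 59.0, 46.3, 29.6 and 24.6 CPM against 23.7, 21.8, 4.9 and 8.2 CPM (1.55, SD 0.58, and 0.78 thinned). Car2, a carbonic anhydrase, stood at 25.9, 41.6, 13.0 and 32.5 CPM against 10.8, 11.9, 7.3 and 9.1 CPM (1.35, SD 0.47, and 0.77 thinned). Tmcc3 (1.39), Zfp707 (1.18) and Rasl11b (1.16) followed. For Scn4b, Smoc1, Car2, Tmcc3, Zfp707 and Rasl11b the members were higher in 4 of 4 libraries also among cells with at least 3 Rag UMIs and without the mature-marker cells.

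Some of the highest ratios rested on few cells. S100a8, a neutrophil calgranulin, had the largest mean ratio (2.59, SD 3.34), and 178 of its 181 UMIs in control 2 came from 1 member. S1pr1 (1.41, SD 0.60) was higher in 4 of 4 libraries, and without the mature-marker cells in 3 of 4 (0.67). With the rule applied to thinned cells its ratio was 0.11. Fam102a (1.31) and Gm8251 (1.36) likewise fell to 3 of 4 libraries without those cells.

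Genes lower in the members included several abundant ones. Lgals1, the lectin galectin-1, stood at 263, 184, 287 and 245 CPM in the members and at 390, 522, 527 and 429 CPM in early-gene-only cells (-0.94, SD 0.40). Zfas1, a snoRNA host transcript, stood at 94.9, 102, 111 and 133 CPM against 166, 243, 206 and 248 CPM (-0.95, SD 0.20, and -0.53 thinned). Phlda1, a TCR-inducible gene, stood at 37.4, 26.5, 38.9 and 32.5 CPM against 43.1, 59.3, 104 and 103 CPM (-1.09, SD 0.63). These 3 genes were lower than in cells with both gene sets as well in 4 of 4 libraries. Sytl1 (-0.92), Prorp (-1.27), Gm19705 (-1.15), Gm39556 (-1.10), H1fx (-1.12), Chdh (-0.996) and Tnfrsf4 (-1.26) made up the rest of the 10 lower genes. Tnfrsf4, the costimulatory receptor OX40, was instead higher than in cells with both gene sets (0.58), and without the mature-marker cells it was lower than in early-gene-only cells in 3 of 4 libraries.

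**Figure D4:**
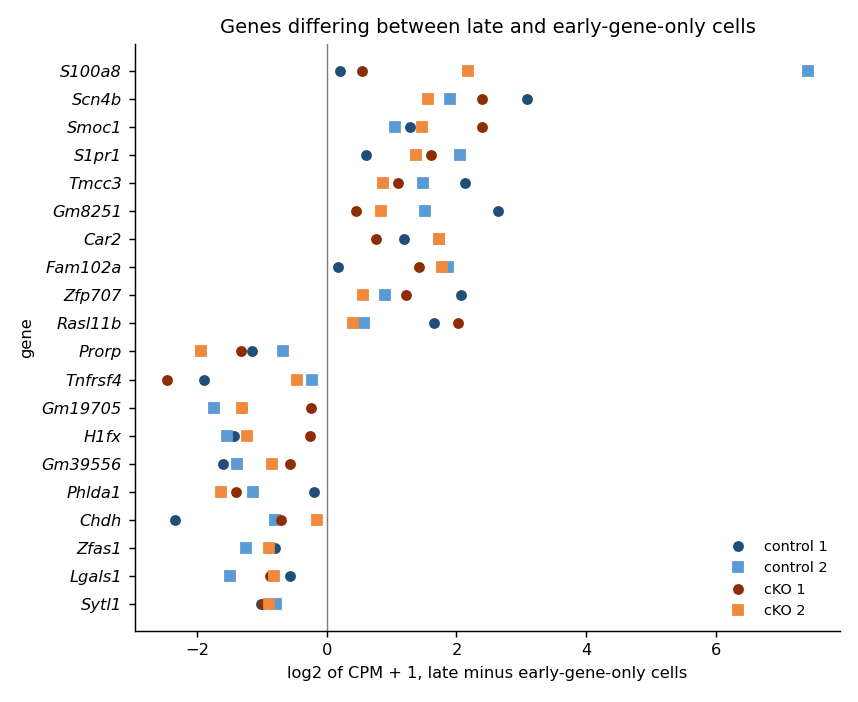
Difference in log2 of CPM with 1 CPM added, members minus early-gene-only cells (x axis), for the 10 genes highest and the 10 lowest by mean ratio (y axis), with 1 point per library. Every gene shown has 1 sign in 4 of 4 libraries by the way it was chosen; the S100a8 point of control 2 comes from 1 cell.

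Trac, the alpha chain constant gene, was slightly higher in the members. It stood at 660, 890, 636 and 582 CPM in control 1, control 2, cKO 1 and cKO 2, against 612, 797, 551 and 543 CPM in early-gene-only cells and 609, 640, 516 and 479 CPM in cells with both gene sets. The mean log2 ratio to early-gene-only cells was 0.14 (SD 0.05, n = 4). It was 0.085 without the mature-marker cells and 0.16 with at least 3 Rag UMIs, higher in 4 of 4 libraries each time. With the early-gene condition dropped, so that cells with both gene sets counted as late, it was -0.11.

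The survival gene Bcl2l1 was not higher in the members. It stood at 135, 171, 104 and 136 CPM in the members, below the early-gene-only cells in 4 of 4 libraries (-0.20, SD 0.09, and -0.085 without the mature-marker cells). Bcl2l1 was also below the cells with both gene sets in 4 of 4 libraries (-0.41, SD 0.22). Dntt was higher than in early-gene-only cells in 1 of 4 (-0.09, SD 0.25). Over all genes compared the median ratio was 0.05, with 13.6% higher and 8.89% lower in 4 of 4 libraries, and the lists below are read against these shares. Among the gene lists, genes of the recombination machinery other than Rag1 and Rag2 had a median ratio of 0.15 with 3 of 16 higher and 1 lower in 4 of 4 libraries. DP transcription factors had a median of 0.03 (4 of 22 higher, 3 lower). Proximal TCR signalling genes had 0.02 (3 of 22 higher, 0 lower) and cytokine receptors and SOCS genes 0.27 (4 of 16 higher, 1 lower). Against cells with both gene sets the recombination list had a median of -0.09 (0 of 16 higher, 4 lower). DP transcription factors had -0.07 there (4 higher, 7 lower) and proximal TCR signalling genes -0.07 (4 higher, 5 lower). Cytokine receptors and SOCS genes had 0.32 (7 higher, 2 lower). The shares over all genes above do not apply to this comparison.

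The genotypes overlapped in the share of members among resting DP cells, though not under each alternative. They were 12.0% of resting DP cells in control 1 (95% Clopper-Pearson interval 10.6 to 13.6), 11.5% in control 2 (10.5 to 12.6), 10.3% in cKO 1 (8.95 to 11.9) and 13.1% in cKO 2 (12.1 to 14.2). The mean difference, cKO minus control, was -0.031 percentage points (exact two-sided permutation p = 1, n = 2 and 2). Of all cells past the limits they were 4.01%, 4.86%, 2.59% and 4.36%, with a mean difference of -0.961 points (exact permutation p = 0.667). With 1 library left out at a time this difference ran from -1.85 (without cKO 2) to -0.074 (without cKO 1). At the 5% mitochondrial limit the shares of all cells were 3.43% and 3.20% in the controls and 2.03% and 2.25% in cKO, without overlap. With the rule applied to cells thinned to 1000 UMIs the share of resting DP cells was 28.4% and 26.3% in the controls and 21.6% and 22.7% in cKO. There the groups did not overlap and the difference was -5.19 points, with p = 0.33, the smallest the exact test allows. At the 5% mitochondrial limit it was 13.5% and 12.7% in the controls and 11.5% and 11.8% in cKO, again without overlap, a difference of -1.46 points with the same p.

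No difference in Tox4 was detected in the members. Tox4 (chr14:52279146-52296401, plus strand) stood at 63.3 and 74.7 CPM in control 1 and control 2 and at 64.9 and 66.7 CPM in cKO 1 and cKO 2, with a log2 fold change of -0.03 (SE 0.21). In a 3′ library the reads lie near the poly(A) tail. Whether the Tox4 reads counted here cover the deleted exons was not tested, so this count does not check the deletion.

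The genotypes were compared gene by gene on UMIs summed over the members of each library, with edgeR's quasi-likelihood test and Benjamini-Hochberg adjustment. Of 7899 genes tested, 0 passed an adjusted p of 0.05 (0.0% called), and 416 (5.27%) had an unadjusted p under 0.05. DESeq2 also called 0, with 79 at an unadjusted p under 0.05. With the replicate number as a block edgeR called 60 of the 7899, with 787 at an unadjusted p under 0.05. The study describes 2 pairs of mice, but no label says that a replicate number marks a pair. Each library held 179 to 528 members and 539632 to 1138888 UMIs.

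The smallest p belonged to Gm32004, a gene model on chromosome 13 (chr13:107524061-107565331, minus strand). It stood at 84.8 and 106 CPM in the members of the controls and at 20.4 and 34.2 CPM in those of cKO, a log2 fold change of -1.67 (SE 0.26, adjusted p = 0.142 in edgeR). It was called without the mature-marker cells and with at least 3 Rag UMIs. Gm26740, a gene model on chromosome 10 (chr10:22187013-22302835, minus strand), stood at 160 and 123 CPM in the controls and 77.8 and 41.3 CPM in cKO (-1.28, SE 0.28, adjusted p = 0.851 in edgeR). It too was called in both narrower sets. Without the mature-marker cells edgeR called 4 of 7518 genes, these 2, S100a9 (-4.49) and Apoe (1.27). The cells behind the S100a9 UMIs were not counted. For the related S100a8, 178 of 181 UMIs in control 2 came from 1 member. The controls and cKO did not overlap for Gm32004 or Gm26740, which were named for their small p. The share of all genes without overlap is not given here.

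Besides Gt(ROSA)26Sor (-0.96), the other genes among the 10 smallest p had higher values in cKO, namely Apoe, Plac8, Gm41600, Syt13, Gzma, C1qb and Nwd1. Gzma, which encodes the protease granzyme A, stood at 25.9 and 20.8 CPM in the controls and 55.6 and 50.05 CPM in cKO (1.23, SE 0.29, edgeR adjusted p = 0.851). Nwd1 stood at 15.8 and 39.7 CPM in the controls and 61.2 and 81.7 CPM in cKO (1.36, SE 0.32, edgeR adjusted p = 0.851). Apoe and C1qb, which are macrophage genes, stood at 87.7 and 95.5 against 226 and 162 CPM, and at 8.63 and 11.3 against 37.1 and 28.1 CPM. The phagocyte list they belong to had 8 of 9 tested members higher in cKO, 7 of them at an unadjusted p under 0.05, with a median log2 fold change of 0.81 against 0.0016 over all genes tested. The part of phagocyte RNA in these values was not tested.

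No member was called in the other lists either. TCR complex genes other than the coreceptors had 7 of 8 members lower in cKO (median -0.17), Cd247, the zeta chain, being the one with the smallest p, at 416 and 443 CPM in the controls and 309 and 347 CPM in cKO. Proximal TCR signalling genes had 12 of 22 lower (-0.02), led by Cd28, the costimulatory receptor, at 398 and 355 against 272 and 251 CPM (-0.47, SE 0.17, edgeR adjusted p = 0.916). DP transcription factors had 12 of 20 lower (-0.07). Glycolysis genes had 8 of 12 lower (-0.13), led by Ldhb, a lactate dehydrogenase subunit, at 834 and 863 against 489 and 616 CPM. Recombination machinery genes had 9 of 15 lower (-0.08), and Mdc1, a DNA damage mediator, stood at 12.9 and 15.1 against 31.5 and 33.4 CPM. Homing receptors (0.10), led by Itga4, the Tox4 complex and Tox family (0.01), led by Ppp1r10, and cytokine receptors (-0.05) lay close to the median of all genes. Il2ra, of the last list, had a log2 fold change of 1.10, and of 0.26 without the mature-marker cells. Survival genes had a median of -0.09, and Bcl2 stood at 76.2 and 38.8 against 232 and 56.2 CPM. The log2 fold change of Bcl2 ran from 0.049 to 2.17 with 1 library left out at a time. Bcl2 was called with the replicate number as a block and with no count filter.

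Among markers of other stages and cell types no gene was called. Mature single-positive markers had 7 of 7 tested members higher in cKO (median 0.31), Runx3 at 33.1 and 19.9 against 87.1 and 22.8 CPM. DN and gamma-delta markers had 5 of 5 higher (1.10), Tcrg-C2 at 18.7 and 2.84 against 53.7 and 22.8 CPM. Proliferation genes had 10 of 13 higher (0.19), Mcm6 at 34.5 and 27.4 against 48.2 and 49.2 CPM, and dissociation stress genes 6 of 8 lower (-0.34), led by Jund. B cell (0.06), thymic epithelial (0.46) and erythroid markers (-0.01) had 3, 4 and 5 tested genes. The summed mature and DN markers were highest in cKO 1. Their part in other differences between the genotypes was not tested.

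The genes that chose the members are described without a test. Cd8a, a coreceptor gene, stood at 1595 and 1494 CPM in the controls and 904 and 1111 CPM in cKO, a log2 fold change of -0.56. Cd8b1 stood at 2249 and 2394 against 1749 and 2106 CPM. For both genes the groups did not overlap. Cd4 stood at 626 and 693 against 424 and 745 CPM, Rag2 at 162 and 176 against 158 and 199 CPM, and for these as for Rag1 and the 4 late genes the groups overlapped. Trac (-0.29, SE 0.21), Bcl2l1 (-0.29, SE 0.20) and Dntt (-0.14, SE 0.22) had edgeR adjusted p-values of 0.925, 0.925 and 0.980.

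Stricter recombinase expression gave a few calls. Among the members with at least 3 Rag UMIs, 10 of 7005 genes passed edgeR's adjusted p of 0.05 (0.143% called), 7 higher and 3 lower in cKO. Gm32004, Gm26740 and Slc15a2 fell, and those that rose included Nwd1, Cd74, H2-Eb1, H2-Aa, Rpl23a and Rplp2. Cd74, H2-Eb1 and H2-Aa encode parts of the MHC class II pathway of antigen-presenting cells, and Rpl23a and Rplp2 encode ribosomal proteins. Among the members with at least 3 Rag UMIs, Cd74 stood at 75.8 and 61.3 CPM in the controls and 98.5 and 184 CPM in cKO, and H2-Aa at 32.8 and 38.1 against 46.1 and 97.4 CPM, with cKO 2 the highest library for both. Over all members the groups overlapped for H2-Aa (57.5 and 31.2 against 46.3 and 86.9 CPM) and H2-Ab1 (51.8 and 24.6 against 31.5 and 73.8 CPM). The fold change of Cd74 over all members ran from 0.36 (without control 2) to 1.33 (without control 1) on the log2 scale with 1 library left out at a time. Rpl23a stood at 962 and 1134 CPM in all members of the controls and 1516 and 1609 CPM in those of cKO. Slc15a2, a peptide transporter, stood at 105, 112, 3.71 and 68.5 CPM, so that cKO 1, with 2 UMIs, stood apart from the 3 other libraries.

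A wider group was examined for depth, the resting DP cells with late genes whatever their early genes, of which the members are a small part. There 31 of 11251 genes passed edgeR's adjusted p of 0.05 (0.276% called), 18 higher and 13 lower in cKO, the rule gene Xrra1 left out. Smoc1 had a log2 fold change of -1.35 in the wider group (SE 0.18) and of -0.92 in the members (SE 0.29), called in the first and not in the second. Gzma had 1.44 and 1.23, Nwd1 1.17 and 1.36, Gm41600 1.81 and 1.503, and Gm32004 -1.67 in both. Car2 had -1.38 against -0.41, and Notch1, a receptor that guides early T cell development, 0.81 against 0.55. Ikzf2, the transcription factor Helios, had 0.85 against 0.30. With 1 library left out at a time the members' value ran from -1.32 to -0.0084 for Car2 and from 0.035 to 0.60 for Ikzf2. Cnn3 (-0.64 and -0.47) and Rab4b (-0.72 and -0.55) were lower, and Rpl23a (0.62 and 0.63), Rplp2 (0.52 in both) and Rps15 (0.50 and 0.49) higher. Xrra1 stood at 83.4 and 88.8 CPM in the cells with both gene sets of the controls and at 49.9 and 49.0 CPM in those of cKO, while the members gave 54.6 and 93.6 against 50.03 and 55.3 CPM.

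**Figure D5:**
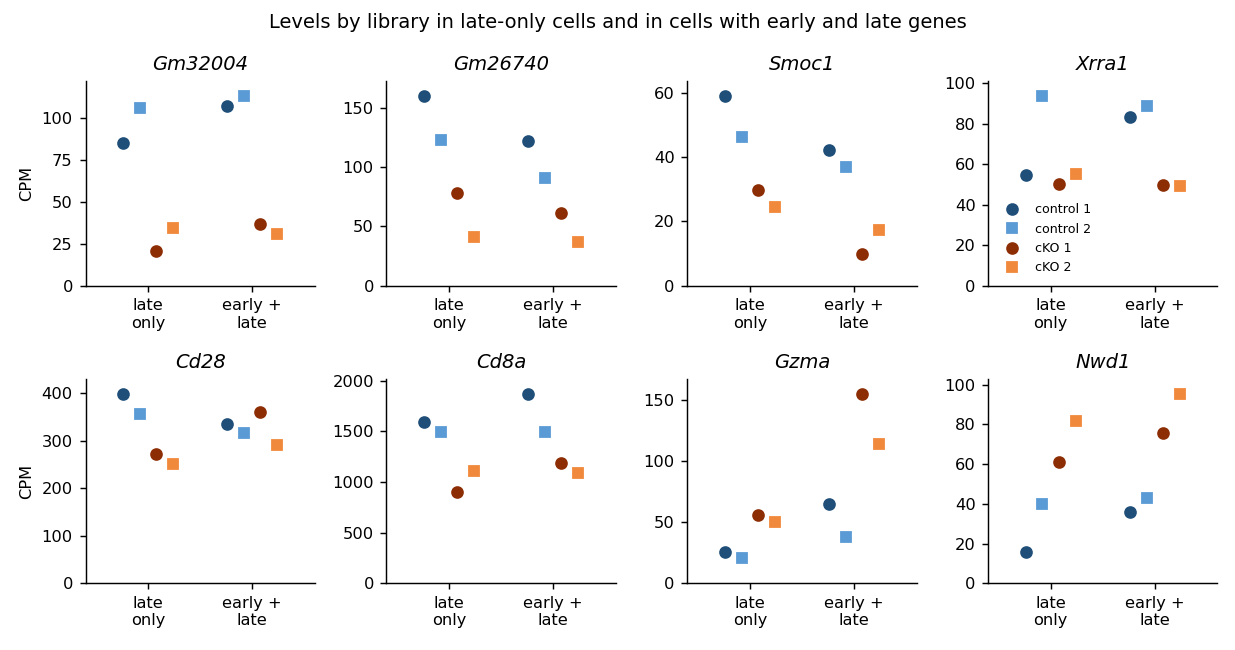
CPM (y axis) of 8 genes in the members (late only) and in cells with early and late genes (x axis), 1 point per library. Gm32004 lies at 84.8 and 106 CPM in the members of the controls and at 20.4 and 34.2 CPM in those of cKO, with no call in the members after adjustment.

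The genotype effect was also compared between the members and the early-gene-only cells of the same libraries. edgeR called 6 of 7469 genes for a difference of effects (0.0803% called), the 4 haemoglobin genes Hba-a1, Hba-a2, Hbb-bs and Hbb-bt, and Tmsb10 and Actg1. Hbb-bs stood at 6813, 19.9, 6347 and 37.8 CPM in the members and at 11223, 13.8, 9.71 and 33.7 CPM in the early-gene-only cells, where 1 cell of control 1 and 0 cells of the other libraries held 5 or more haemoglobin UMIs. In the early-gene-only cells 0 of 6225 genes were called for genotype by edgeR, with 385 at an unadjusted p under 0.05. Tmsb10, an actin-sequestering thymosin, stood at 2840, 1717, 3015 and 1078 CPM in the members of control 1, control 2, cKO 1 and cKO 2 and at 2756, 1722, 1824 and 843 CPM in the early-gene-only cells. Its difference of effects was 0.59 (SE 0.10, edgeR adjusted p = 0.00133). Actg1, a cytoplasmic actin, stood at 1274, 1120, 1179 and 851 CPM and at 1632, 1629, 1093 and 891 CPM (0.53, SE 0.11, edgeR adjusted p = 0.0142). With haemoglobin-bearing cells left out, Tmsb10 and Actg1 were the 2 genes called. With the rule applied to thinned cells neither was called, at 0.18 and 0.12, nor was either called at the 5% mitochondrial limit (0.74 and 0.81) or without control 1 (0.60 for both), control 2 (0.57 and 0.44) or cKO 1 (0.37 and 0.42). Tmsb10 also lost its call without the mature-marker cells (0.42) and with the early-gene condition dropped (0.47), and Actg1 with the top 5% of doublet scores left out (0.52) and with at least 2 late-gene UMIs (0.25). The edgeR adjusted p over these alternatives and those that kept the call ranged up to 0.944 for Tmsb10 and 0.973 for Actg1. Without cKO 1 edgeR called 0 genes, with 417 at an unadjusted p under 0.05, and without cKO 2 it called 31.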

How the data were processed

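Thymocytes of 2 control and 2 cKO mouse libraries were analysed, grouped by GEO's labels. The authors counted reads with Cell Ranger (cellranger 6.1.1 per the file headers, mm10 per the labels) and deposited filtered matrices of raw UMI counts. The cell rule and the gene lists were chosen with earlier results of these data known. UMIs of the chosen cells were summed per library and tested with edgeR 4.0.16 (R 4.3.3, TMM scaling, filterByExpr, quasi-likelihood, Benjamini-Hochberg), after a check on simulated data, with the 28 rule genes left out of calls. Levels are CPM. Genes were named by rule (Tox4, recombination, survival and coreceptor genes, called genes, the smallest p of each list, the 10 most extreme late-to-early ratios each way), and the 10 smallest p overall and genes called in other cell sets were chosen after their values were seen. Alternatives were DESeq2 1.42.0 and its size factors, no count filter, a replicate block, each library left out, a 5% mitochondrial limit, extreme UMI totals or the top 5% of Scrublet scores (scanpy 1.11.5) left out, at least 2 late-gene UMIs and the rule applied to cells thinned to 1000 UMIs, which redraws the classes and leaves the tested counts unthinned. Doublets otherwise stayed in. The study describes 2 pairs of mice, and p-values measure the spread between these libraries. Some genes are not reported here.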

Additional observations from a re-analysis of the deposited data

Results flagged for a closer look

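The genotype effect differed between the members and the early-gene-only cells for 6 genes by edgeR's test of the difference itself. The differences on the log2 scale were 7.78 for Hba-a1, 7.03 for Hba-a2, 7.92 for Hbb-bt and 6.64 for Hbb-bs, where a single member of control 1 and a single member of cKO 1 held nearly all Hbb-bs UMIs of their libraries' members. Among early-gene-only cells, 1 cell of control 1 and 0 cells of cKO 1 held 5 or more haemoglobin UMIs, and Hbb-bs stood at 11223 and 9.71 CPM there. They were 0.589 for Tmsb10 and 0.526 for Actg1, which were also the 2 genes called with haemoglobin-bearing cells left out. Neither was called with the rule applied to thinned cells (0.18 and 0.12), at the 5% mitochondrial limit, or without control 1, control 2 or cKO 1, and Tmsb10 was not called without mature-marker cells (0.42).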

How the results depend on the processing

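With 2 libraries a group and 179 to 528 members each, calls depended on the cells and the fit, and the causes were not tested. Genes called for genotype, 0 as reported, numbered 18 with no count filter, 2 with at least 2 late-gene UMIs, 25 with the rule applied to thinned cells (which redraws the classes and leaves the counts unthinned), 31 with the early-gene condition dropped, 4 without mature-marker cells, 10 with at least 3 Rag UMIs, and 6 (without control 2) to 81 (without cKO 2) with a library left out, where the lone library was assumed to vary like the other group. The replicate block gave 60. The study describes 2 pairs of mice, but neither it nor the labels say that a replicate number marks a pair, so the block was not the reported fit (correlation of deviations of same-numbered libraries 0.56 over 3505 genes). Genes called for a difference of effects, 6 as reported, ranged from 0 to 31 with a library left out, and numbered 2 with thinned cells and 2 without haemoglobin-bearing cells. The settings on the early-gene condition, mature markers, haemoglobin and Rag UMIs were chosen after seeing the data.

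The share of cells past the limits differed by -4.36 points with thinned cells and -9.70 with the early-gene condition dropped. The share of resting DP cells differed by -5.19 and -5.03 in these settings, by 0.033 with at least 3 Rag UMIs, by -1.41 to 1.35 with a library left out, by 0.244 without control 1 and by 1.35 without cKO 1. The Trav difference of 18.8 points became 5.47 thinned, 6.58 with the condition dropped and 24.9 without mature-marker cells. The Trac ratio of 0.14 became 0.31 at the 5% mitochondrial limit, 0.22 with at least 2 late-gene UMIs, -0.11 with the condition dropped and 0.085 without mature-marker cells. With the condition dropped S1pr1 became -0.29, Phlda1 0.12 and Tcrg-C2 -0.085. At the 5% limit S1pr1 became -0.064, Itga4 -0.43, Notch1 -0.29 and Ikzf2 -0.039. Tox4 became 0.045 with at least 2 late-gene UMIs. With a library left out Tox4 ranged from -0.12 to 0.10 (highest without control 2), Dntt from -0.38 to 0.066 (0.017 without control 2, 0.066 without cKO 1) and Runx3 from -0.14 (without cKO 1) to 1.87. With thinned cells Mcm6 became -0.054, and the differences of effects became -1.81 for Hba-a1, -1.76 for Hba-a2, -1.36 for Hbb-bt and -2.40 for Hbb-bs. With a library left out Hba-a2 ranged from -0.41 (without cKO 1) to 9.34, and Hbb-bs -0.058 without haemoglobin-bearing cells. Of 780 values for the 47 genes compared between genotypes, 21 changed sign, in 14 genes that include the rule genes Rag1, Rag2, Xrra1, Slc6a19, A430035B10Rik and Cd4, and 92 passed the adjusted p of 0.05.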
